A study of Drosophila melanogaster with 2 samples.

Results

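The DNA replication genes described here are 33 of the 14284 genes in the deposited count tables, taken from a list of gene names with no threshold on their values, though with earlier results of these data known. All 33 symbols matched the authors' deposited table, and every one had counts summing to at least 20 over both libraries, the minimum for the 9142 genes called measured. The study compared type II neural stem cell (neuroblast) lineages of the late larval brain of Drosophila melanogaster with and without RNAi against brat, a translational repressor whose loss lets these lineages overgrow. Each group was 1 library, so no difference has a replicate check, no test was run, and each difference describes these libraries rather than the genotypes.

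Both crosses carried the drivers wor-Gal4 and asense-Gal4, the responders UAS-CD8::GFP and UAS-dicer2, and tub-Gal80ts, a temperature-sensitive repressor of Gal4, spelled as in the labels. The brat RNAi group also carried the VDRC line 105054, and the control group carried no RNAi line. Animals grew at 18 °C and were moved to 29 °C late in larval life, and brains were taken 24 h later. Cells with membrane-bound GFP, described as type II neuroblasts and their progeny of 24 h, were sorted and polyA RNA was sequenced. The drivers belong to neuroblasts in general, asense is known as a marker of type I rather than type II neuroblasts, and neither the number of pooled brains nor the sex of the animals is stated in the labels.

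The libraries held 16566265 gene counts (control) and 15236504 gene counts (brat RNAi). The targeted gene brat had 11152 normalised counts in the control and 6911 with brat RNAi, while the 2 genes of the study's title, dpn and zld (listed as vfl), had 1901 and 3740, and 7369 and 13315. All 10 neuroblast markers listed were detected, at a summed 3488 CPM (counts per 1000000 gene counts) in the control and 4375 CPM with brat RNAi. Of them 8 passed the threshold for higher genes defined below, which 17.2% of all measured genes did. After the correction for transcript length and level, also defined below, dpn, wor, grh and pnt stayed past it, while insc, mira, btd and klu fell short. The marker ase had 1790 counts in the control and 1236 with brat RNAi. Summed markers of other cells stood at 264 and 237 CPM for 4 neuronal genes, 681 and 642 for 5 glial genes, 386 and 474 for 5 hemocyte genes, 8.93 and 4.40 for 5 fat body genes, and 205 and 226 for 7 eye disc and optic lobe genes. These sums hide opposite differences within a list, such as elav at 2783 and 2140 counts and brp at 461 and 518 among the neuronal genes. Among the hemocyte genes Hml had 4325 and 5039 counts and He 81 and 27. In the eye disc and optic lobe list so had 194 and 398 counts and bsh 340 and 87. By the threshold defined below, 3 of those 7 genes were higher and 2 lower, against 17.2% and 15.1% of all measured genes. Larger gaps in the sums were seen for 9 muscle genes, at 33.4 and 12.3 CPM, and for 10 female germline and yolk genes, at 219 and 17.5 CPM. No marker on any of these lists was at 0 in both libraries. Replicating cells occur in the germline too, and the part of these RNAs in the results below was not tested.

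Before S phase, the origin recognition complex (ORC), Cdc6 and Cdt1 load the Mcm2-7 ring onto DNA, a step called licensing, which geminin blocks by binding Cdt1. Cdc45 and the GINS complex then join Mcm2-7 to form the active helicase, polymerase alpha with primase starts each strand, and PCNA, loaded by replication factor C, holds the replicative polymerases. Ribonucleotide reductase, thymidylate synthase and deoxynucleoside kinase supply the nucleotides, CAF-1 places histones behind the fork, and many of these genes are textbook targets of E2F, which binds DNA as a dimer with Dp. Neuroblasts divide repeatedly through larval life and express this machinery at high levels.

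The replication genes were on balance slightly more abundant in the brat RNAi library, led by the Mcm2-7 helicase genes, while 2 members, Orc6 and RnrS, were lower. Together the 33 genes held 0.805% of gene counts in the control (95% Wilson interval 0.801 to 0.810) and 0.893% with brat RNAi (0.888 to 0.898). Most of that gain lay in the 6 Mcm2-7 genes, which held 0.346% in the control and 0.427% with brat RNAi. A member was counted as higher when its normalised count was at least 25% above the control, and as lower when it was at least 20% below, which is a log2 ratio (brat RNAi over control) of 0.32 in size. The 95% exact counting interval of the ratio also had to exclude 0. By that rule 10 of 33 were higher (30.3%, against 17.2% of all measured genes), 2 were lower (6.06%, against 15.1%) and 21 were neither. The measured genes within the members' own range of levels, 5543 in number, form a closer background, and 23.5% of them were higher and 9.04% lower. None of the members differed 2-fold, which 1.15% of measured genes did upward and 4.48% downward. The median log2 ratio of the members was 0.17, beside 0.004 for all measured genes and 0.09 for the genes in their range of levels. The members between the lower and upper quartile lay between -0.02 and 0.39, and the genes in their range of levels between -0.12 and 0.31.

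Scaling and transcript length bear on every value. Total count scaling lowers each log2 ratio by 0.14 and puts the median of the members at 0.03 and that of all measured genes at -0.14. Under it 2 members were higher (Mcm2 and Mcm3), 6.06% against 9.59% of all measured genes. A further 6 members were lower, against 24.6% of all measured genes. The direction of any gene with a ratio near 0 thus depends on the scaling. Long and abundant transcripts had higher ratios throughout these libraries. Values called corrected are ratios less the median of measured genes in the same decile of length, then of those in the same decile of level. After correction 5 members were higher, 15.2% against 13.1% of all genes corrected, and 2 were lower against 9.97%. In these sorted cells in bulk, more cells of a type and more RNA per cell cannot be told apart.

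**Figure D1:**
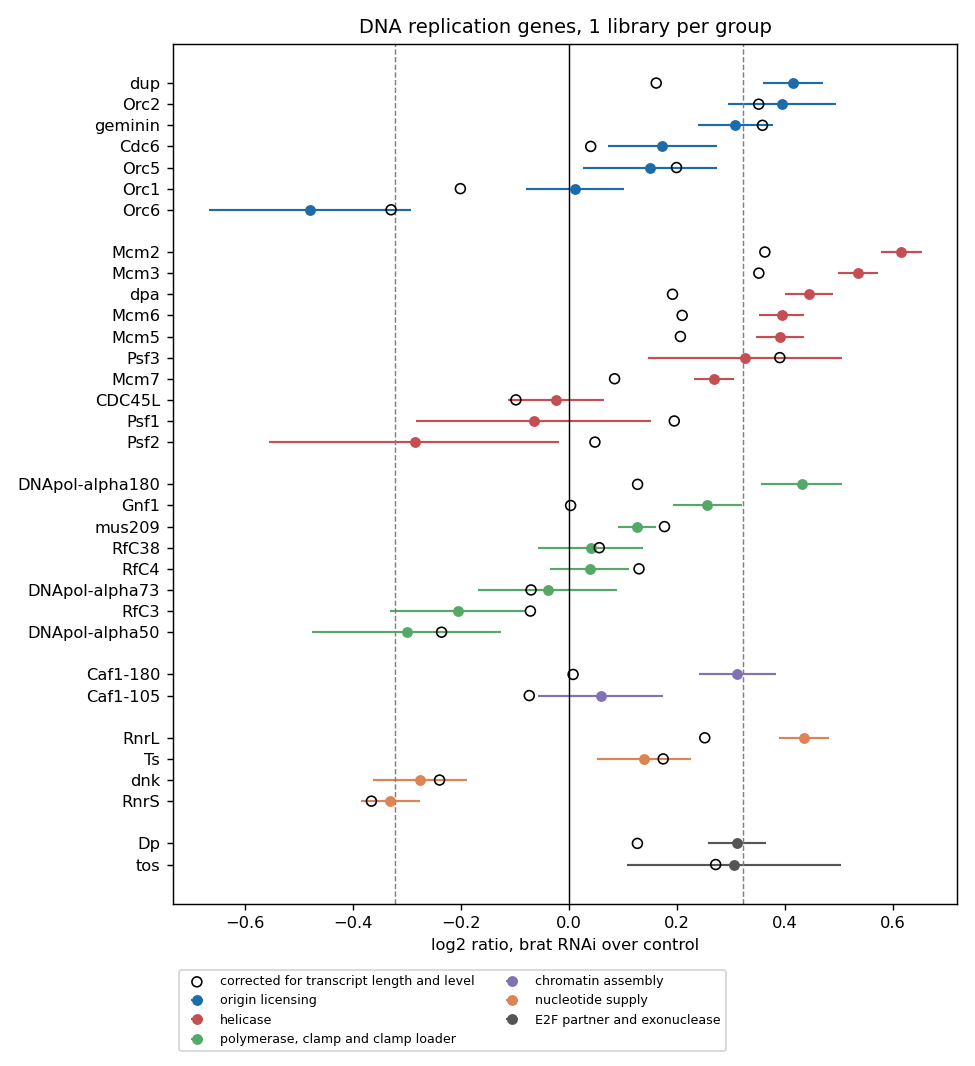
Log2 ratio of brat RNAi over control for the 33 replication genes, grouped by role. Filled points are the ratios with 95% exact counting intervals, open circles the values corrected for transcript length and level, and dashed lines mark the threshold of 0.32 in size. Mcm2 at 0.62 is the highest and Orc6 at -0.48 the lowest.

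Among the 7 licensing genes, 2 were higher (28.6%), 1 was lower (14.3%) and 4 were neither. The same calls covered 17.2% and 15.1% of all measured genes, and 23.5% and 9.04% of those in the members' range of levels. The median log2 ratio of the licensing genes was 0.17, or 0.16 after correction. The ORC subunits did not share 1 direction. Orc2, a core subunit of the ring that binds origins, had 1409 normalised counts in the control and 1853 with brat RNAi, a log2 ratio of 0.39 (0.29 to 0.50), and stayed past the threshold after correction at 0.35. Orc6, the subunit that in flies also takes part in septin function at cytokinesis, went the other way, with 573 and 411 and a log2 ratio of -0.48 (-0.67 to -0.29). It was also lower after correction, at -0.33. It stayed lower under the other scalings too, but these lower every ratio, so its call could not be lost. Orc1, the subunit known to be regulated through the cell cycle by degradation, stood at 1986 and 2000.3, a log2 ratio of 0.01 (-0.08 to 0.10). Orc5, another ring subunit, was between them at 994 and 1103 (0.15, 0.02 to 0.27).

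The loading factors were at or above the control level. Double parked (dup), the fly Cdt1, had 4450 normalised counts in the control and 5932 with brat RNAi, a log2 ratio of 0.41 (0.36 to 0.47), and its inhibitor geminin had 3052 and 3780 (0.31, 0.24 to 0.38), just short of the threshold. Correction reversed their order, since dup has a transcript of 2951 bp and geminin one of 1000 bp, and left dup at 0.16 and geminin at 0.36, now past it. The level of dup per kb of transcript was 0.494 times that of geminin in the control and 0.532 times with brat RNAi. Cdc6, the ATPase that joins ORC to load the ring, had 1501 and 1692, a log2 ratio of 0.17 (0.07 to 0.27).

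All 6 genes of the Mcm2-7 ring, the motor of the helicase, had more normalised counts in the brat RNAi library. Of these, 5 passed the threshold, against 17.2% of all measured genes and 23.5% of those in the members' range of levels. Mcm2 had 9259 in the control and 14192 with brat RNAi, 1.53-fold and a log2 ratio of 0.62 (0.58 to 0.65), and was the one member beyond 1.5-fold. Mcm3 followed with 9665 and 14014 (0.54, 0.50 to 0.57). Both were higher past the threshold under every scaling and after correction, where they were at 0.36 and 0.35. The fly Mcm4, disc proliferation abnormal (dpa), had 7032 and 9573 (0.44, 0.40 to 0.49), Mcm6 had 8184 and 10754 (0.39), and Mcm5 had 7150 and 9373 (0.39). Mcm7, the most abundant of the ring in the control, differed least, with 11128 and 13406 (0.27, 0.23 to 0.30). After correction these 4 lay between 0.08 and 0.21 and none passed the threshold. The share of gene counts held by the ring genes together was 0.346% in the control (95% Wilson interval 0.344 to 0.349) and 0.427% with brat RNAi (0.424 to 0.431).

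Cdc45 and the GINS subunits, which complete the helicase, had log2 ratios from -0.29 to 0.33, and Psf3 lay within the range of the ring. CDC45L, the fly Cdc45, had 2096 normalised counts in the control and 2061 with brat RNAi, a log2 ratio of -0.02 (-0.11 to 0.06). Psf1 had 361 and 345 (-0.06, -0.28 to 0.15) and Psf2 had 260.3 and 214 (-0.29, -0.56 to -0.02), so neither passed the threshold, though Psf2 did so downward with total count scaling. Psf3 passed it upward, by a narrow margin, with 458 and 575 (0.33, 0.15 to 0.51), and it did not pass with TMM scaling (0.30) or total count scaling (0.19). In the reference annotation 34.9% of its exonic bases overlap CG17841 on the other strand, and without a stated strand setting reads of the pair cannot be told apart. After correction for their short transcripts the 3 GINS genes stood at 0.19, 0.05 and 0.39 in the same order, values that overlap the corrected range of Mcm2-7 (0.08 to 0.36). The remaining GINS subunit, Sld5, had 400.0 and 395 (-0.02, -0.22 to 0.19). Levels per kb of these genes were also far apart from the ring, at 275 to 521 normalised counts per kb for GINS and 947 for CDC45L in the control against 2394 to 4540 for Mcm2-7.

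Of the 8 genes for priming, the clamp and its loader, 1 was higher (12.5%) and none lower, against 17.2% and 15.1% of all measured genes. Their median log2 ratio was 0.04. DNApol-alpha180, the catalytic subunit of polymerase alpha, was the higher one, with 2464 normalised counts in the control and 3323 with brat RNAi (0.43, 0.36 to 0.51). At 4624 bp it has the longest transcript among the members, and its corrected value was 0.13. Its accessory subunit DNApol-alpha73 had 997 and 970.1 (-0.04, -0.17 to 0.09). The primase catalytic subunit DNApol-alpha50 had 611 and 496 (-0.30, -0.48 to -0.13), near the lower threshold, and crossed it with TMM and with total count scaling. The remaining primase subunit, DNApol-alpha60, was at -0.16 (-0.29 to -0.03).

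The clamp mus209 (PCNA), the most abundant member, differed little between the libraries. It had 12317 normalised counts in the control and 13447 with brat RNAi, a log2 ratio of 0.13 (0.09 to 0.16), and under total count scaling it held 0.0814% (0.0800 to 0.0828) and 0.0806% (0.0792 to 0.0820) of gene counts. Among its loader genes, the large subunit Gnf1 had 3612 and 4314 (0.26, 0.19 to 0.32), RfC38 had 1711 and 1758 (0.04), RfC4 had 2982 and 3062 (0.04), and RfC3 had 1124 and 974 (-0.21, -0.33 to -0.08). None of the 4 passed the threshold, which RfC3 crossed downward with total count scaling, and their corrected values ran from -0.07 to 0.13. RfC38 overlaps Nup160 on the other strand over 25.2% of its exonic bases.

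**Figure D2:**
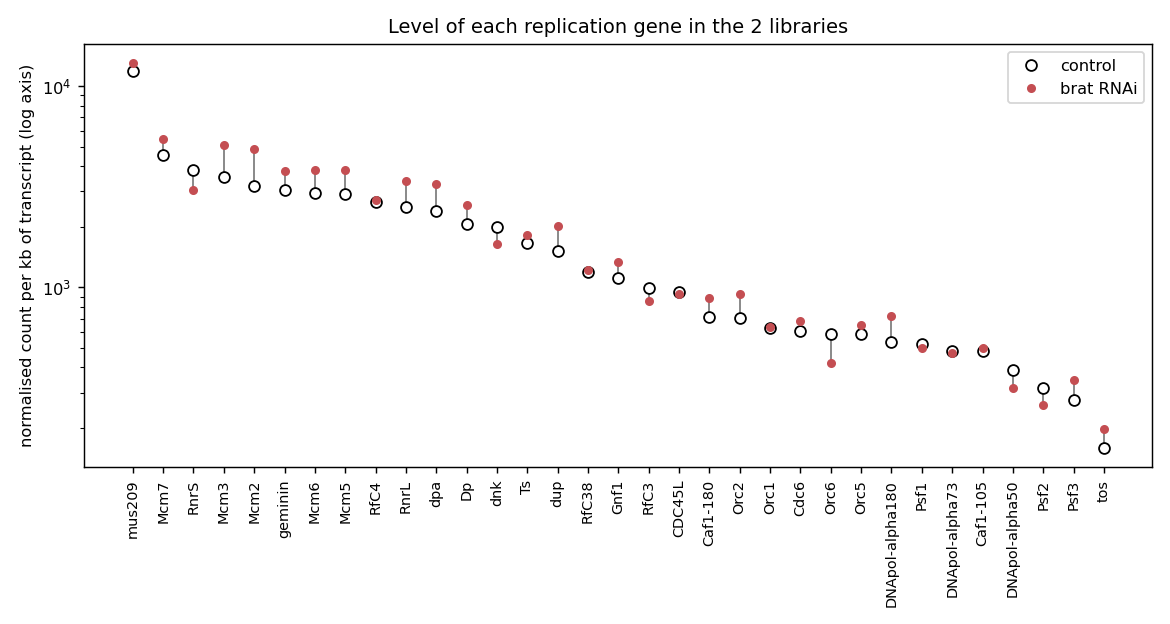
Normalised counts per kb of transcript (log axis) of each replication gene in the control (open) and brat RNAi (filled) library, ordered by the control. The clamp mus209 is highest at 11918 and 13011, and tos is lowest at 159 and 197. The brat RNAi point lies above the control for 24 of the 33 genes, among them all 6 Mcm2-7 genes. It lies below for RnrS, dnk, Orc6, RfC3, CDC45L, Psf1, Psf2, DNApol-alpha50 and DNApol-alpha73.

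Nucleotide supply genes split. The subunits of ribonucleotide reductase, which makes deoxynucleotides from ribonucleotides and needs a large and a small subunit, differed in opposite directions. RnrL, the large subunit, had 6431 normalised counts in the control and 8699 with brat RNAi, a log2 ratio of 0.44 (0.39 to 0.48). RnrS, the small subunit, had 6083 and 4835, a log2 ratio of -0.33 (-0.39 to -0.28). Correction left RnrL at 0.25, under the threshold, and RnrS at -0.37. The other scalings lower every ratio, so RnrS could not lose its call under them. The level of RnrL per kb of transcript was 0.654 times that of RnrS in the control and 1.11 times with brat RNAi.

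Thymidylate synthase (Ts), which makes dTMP, had 2054 and 2261 normalised counts, a log2 ratio of 0.14 (0.05 to 0.23). The salvage enzyme deoxynucleoside kinase (dnk) had 2375 and 1961 (-0.28, -0.36 to -0.19) and did not reach the threshold, which it passed downward with total count scaling. Its corrected value was -0.24. In the reference annotation, Ts overlaps Rbp9 over 10.5% of its exonic bases and dnk overlaps Smu1 over 8.04%, both on the other strand.

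The histone chaperone CAF-1 and the remaining members gave ratios under the threshold. Caf1-180, the large subunit, had 2885 normalised counts in the control and 3581 with brat RNAi (0.31, 0.24 to 0.38), and Caf1-105 had 1192 and 1242 (0.06, -0.06 to 0.17). After correction they were at 0.01 and -0.07. Dp, the partner of E2F, had 5061 and 6278 (0.31, 0.26 to 0.36), and 0.13 after correction. The exonuclease tos, the fly Exo1, had 381 and 471 (0.31, 0.11 to 0.50), and 0.27 after correction, at the lowest level per kb of all members.

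Pairs of genes that act together were set against each other, in 7 cases subunits of 1 complex and otherwise dup with its inhibitor geminin and the separate enzymes Ts and dnk, since the ratio of 2 genes within each library does not depend on the scaling. The pairs were chosen after their values were seen and mostly join the highest and lowest member of a complex, so their sizes are descriptions. RnrL against RnrS gave a log2 difference of 0.77 (counting interval 0.70 to 0.84), Orc2 against Orc6 0.87 (0.66 to 1.08), and DNApol-alpha180 against DNApol-alpha50 0.73 (0.54 to 0.92). Psf3 against Psf2 gave 0.61 (0.30 to 0.93), Gnf1 against RfC3 0.46 (0.32 to 0.60), Mcm2 against Mcm7 0.35 (0.30 to 0.40), Caf1-180 against Caf1-105 0.25 (0.12 to 0.39), Ts against dnk 0.41 (0.29 to 0.54), and dup against geminin 0.11 (0.02 to 0.19). In all 9 pairs the gene with the higher ratio also had the longer transcript. After correction for length and level the difference kept its sign in 8 of 9, with dup and geminin as the exception at -0.20. It was still 0.62 for RnrL and RnrS and 0.68 for Orc2 and Orc6, and it was 0.07 for Gnf1 and RfC3 and 0.08 for the CAF-1 subunits.

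Longer members had higher ratios. Across the 33 members, which share the 2 libraries and are not independent, Spearman's rho of the log2 ratio with transcript length was 0.67 and with mean normalised count 0.57. Over 8899 measured genes with a length these were 0.41 and 0.40. The 11 shortest members, 692 to 1569 bp, had a median log2 ratio of -0.06, with 0 higher and 1 lower. The 11 of middle length, 1593 to 2481 bp, had 0.27, with 3 higher and 1 lower. The 11 longest, 2483 to 4624 bp, had 0.41, with 7 higher and 0 lower. Of all measured genes of any length, 17.2% were higher and 15.1% lower. The median log2 ratio of measured genes with a length rose too, from -0.24 in the shortest decile to 0.32 in the longest. The corrected medians of the shortest, middle and longest members were 0.06, 0.13 and 0.16. The part of transcript length in the ratios was not tested beyond this correction.

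**Figure D3:**
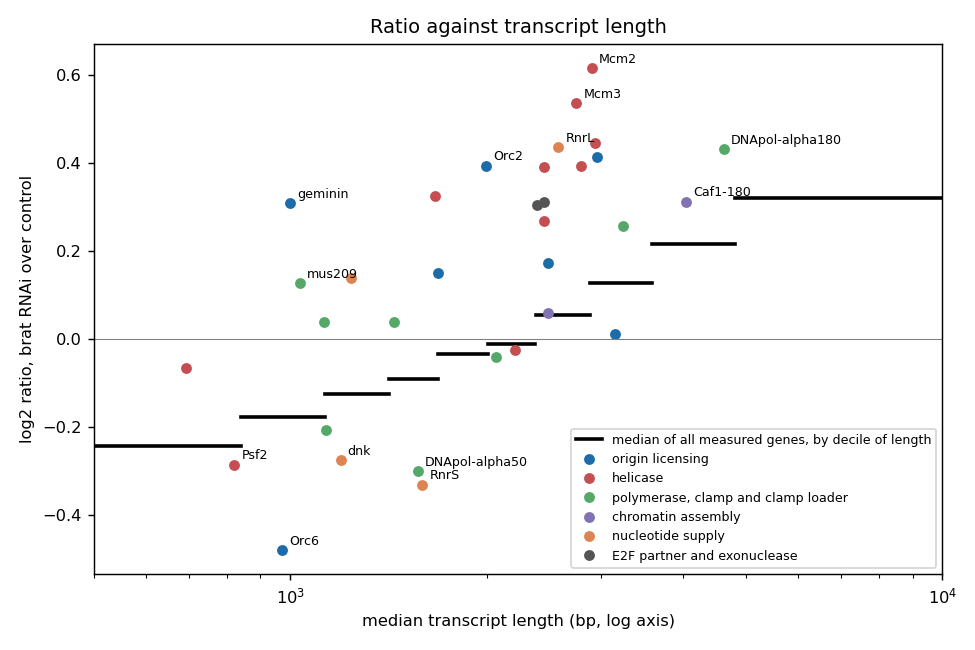
Log2 ratio of brat RNAi over control against median transcript length (log axis) for the 33 members, coloured by role. Black bars give the median of all measured genes in each decile of length, the outermost bars drawn only to the axis limits. Mcm2, Mcm3, Orc2 and geminin lie well above the bars at their length, and Orc6, RnrS and DNApol-alpha50 lie below.

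Another 51 genes of DNA replication and its control, none of them members, were listed by name, and 48 were measured. Of these 15 were higher by the same rule (31.2%), 2 lower (4.17%) and 31 neither, against 17.2% and 15.1% of all measured genes and 23.5% and 9.04% of those in the members' range of levels. Their median log2 ratio was 0.25 and their corrected median 0.07. Those for Orc3 (lat) and Chrac-14 had no counts in either library, and RPA3 could not be matched. All exonic bases of lat overlap CG34315 on the same strand in the reference annotation.

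Elongation and origin factors among the higher genes were DNApol-epsilon, the leading strand polymerase, with 3133 normalised counts in the control and 4724 with brat RNAi (0.59, 0.53 to 0.66), and mus101, the fly TopBP1 needed for origin firing, with 1295 and 1977 (0.61, 0.51 to 0.71). The single-strand binding subunit RpA-70 had 6030 and 8289 (0.46, 0.41 to 0.51), Mcm10, a helicase cofactor, 881 and 1218 (0.47, 0.34 to 0.59), and Claspin, a checkpoint mediator at the fork, 1146 and 1673 (0.55, 0.44 to 0.65). Topoisomerase Top2 was at 0.40, the timing factors Rif1 and SuUR at 0.47 and 0.33, and CTPsyn, which makes CTP, at 0.33. After correction for length and level Top2 turned to -0.05, and Rif1, SuUR and CTPsyn stood at 0.12, 0.14 and 0.15. DNApol-epsilon, mus101 and Claspin stood at 0.15, 0.21 and 0.25 after it, also short of the threshold, while RpA-70 (0.34) and Mcm10 (0.37) still passed. With total count scaling Top2, SuUR, CTPsyn and RpA-70 did not pass. The histone chaperone asf1 (2416 and 1854) was lower at -0.38 (-0.47 to -0.29).

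Of 7 control genes of S phase entry, 2 were higher and none lower, against 17.2% and 15.1% of all measured genes. Their median log2 ratio was -0.05, and 4 of the 7 were below 0. E2f, the activating E2F, had 5396 and 7951 normalised counts (0.56, 0.51 to 0.61), and CycE, the cyclin that drives S phase entry, 3038 and 4156 (0.45, 0.38 to 0.52). With total count scaling E2f still passed the threshold and CycE did not. Rbf, the retinoblastoma protein that restrains E2F, had 2175 and 2401 (0.14, 0.06 to 0.23), and after correction E2f was at 0.21, CycE at 0.11 and Rbf at -0.16. The repressor E2f2 was at -0.27 (-0.42 to -0.11), and passed the threshold downward with total count scaling. The kinase cdc2c (Cdk2) was at -0.14, its inhibitor dap at -0.13 and Rbf2 at -0.05. Of 5 checkpoint kinases and partners, 4 were higher, against 17.2% of all measured genes and 23.5% of those in the members' range of levels. The ATR kinase mei-41 had 956 and 1952 (1.03, 0.92 to 1.14), the one listed replication gene beyond 2-fold, and 0.63 after correction. The ATM kinase tefu was at 0.44, the Chk2 kinase lok at 0.37 and the Chk1 kinase grp at 0.36. The partner of mei-41, mus304, was at -0.02 (-0.25 to 0.21). After correction tefu, lok and grp stood at 0.03, 0.30 and 0.24, under the threshold. With total count scaling mei-41 alone of the 5 passed it. After correction 4 of the 48 other genes were higher (mei-41, Mcm10, RpA-70 and Mes4 at 0.50) and asf1 was lower at -0.35. That is 8.33% higher and 2.08% lower, against 13.1% and 9.97% of all genes corrected.

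Genes of mitosis, the other main programme of dividing cells, are set beside the members. Of 33 measured mitosis genes, 14 were higher (42.4%) and 1 lower (3.03%). Of all measured genes 17.2% were higher and 15.1% lower, and of those in the members' range of levels 23.5% and 9.04%. After correction 3 mitosis genes were higher (9.09%) and 0 lower, against 13.1% and 9.97% of all genes corrected. The 3 were the mitotic cyclin CycB3, the spindle midzone protein feo and the anillin scra. Total count scaling gave 8 higher (24.2%) and 3 lower (9.09%), against 9.59% and 24.6% of all measured genes. Their median log2 ratio was 0.24 and their corrected median 0.06, beside 0.17 and 0.13 for the members. With 1 library per group no test of a difference between the lists was possible.

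**Figure D4:**
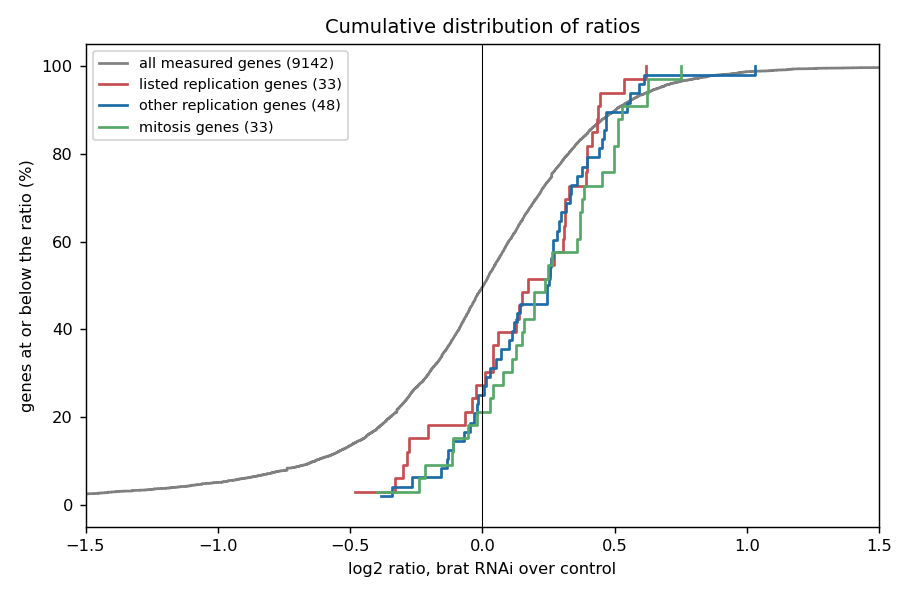
Cumulative share of genes (%) at or below each log2 ratio of brat RNAi over control, for all 9142 measured genes, the 33 replication genes, the 48 other replication genes and the 33 mitosis genes. The 3 curves of cell cycle genes lie to the right of all measured genes over most of the range, with medians of 0.17, 0.25 and 0.24 against 0.004.

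In the authors' deposited table, every one of the 33 members had an adjusted p of 1, and 49 of all genes in it had an adjusted p under 0.05, from 1 library against 1. The log2 fold changes in the authors' deposited table equal those given here with the sign turned, so they are no separate measurement.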

How the data were processed

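The authors deposited raw counts of read pairs per gene for 2 libraries of sorted larval brain cells and a table comparing them. The submitters' processing notes name TopHat 1.4.1, BWA 0.6.1, DESeq 1.8.3 and HTSeq, with no role given; per the file headers, gene names follow FlyBase release 5.44. Build and strandedness of the counting were not given in the sources used here. The authors' table holds base means, a normalised signal never below 0, log2 fold changes (control divided by brat RNAi) and adjusted p-values, per the file headers. Its 10987 finite log2 values matched the present ones, with the sign turned, to within 1e-06.

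Counts were divided by median-of-ratios size factors (1.09 and 0.913), computed in Python 3.11.15 with scipy 1.17.1. Rows naming no gene (22.7% and 27.2% of pairs) were left out. Intervals are 95% exact (Clopper-Pearson) for single genes and normal approximations on the log odds for pairs of genes. They cover counting error only, since each group was 1 library. Even that is the error of counting read pairs, which are not molecules. Transcript lengths are medians from the BDGP6 annotation, found for 8899 of 9142 measured genes (97.3%), 205 of them by symbol; it served for names, overlaps and lengths, and no coordinates are printed. The correction subtracts the median of the decile of length, then of level. Alternatives were total count scaling, TMM (edgeR 4.0.16), the correction, no minimum count and a 1.5-fold threshold. Interval and correction code was tested on simulated data. No p-value was computed. All members were named, and of the other replication genes those past the threshold plus CycE, E2f and Rbf; Orc3 (lat), Chrac-14, RPA3, Sld5, DNApol-alpha60, E2f2, cdc2c, dap, Rbf2, mus304, Mes4, CycB3, feo and scra were named after their values were seen. The members and lists were chosen with earlier results of these data known. One of the other replication genes past the threshold is not reported here by name.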

Additional observations from a re-analysis of the deposited data

Results flagged for a closer look

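Read pairs assigned to no annotated feature made up 26.6% of the brat RNAi table and 22.0% of the control table. They enter no ratio above, and are listed as a signal outside the comparison that exceeded its control value. Whether any of these pairs come from replication genes cannot be read from the counts.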

How the results depend on the processing

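With 1 library per group, counting error is the only error measured, and total count scaling lowers every log2 ratio by 0.14. Against 10 higher and 2 lower members, a median of 0.17, 15 higher and 2 lower other replication genes, and 1574 higher and 1385 lower of all measured genes, total count scaling gave 2 and 6, 0.032, 7 and 3, and 877 and 2251, with a median of all measured genes of -0.14. The share of higher genes among all calls went from 53.2% to 28.0%. The correction for length and level gave 5 higher members and 2 lower, 4 higher and 1 lower other genes, and 1165 and 885 over all genes. A 1.5-fold threshold left 1 higher and 0 lower members, 3 and 0 other genes, and 542 and 761 of all genes, as a stricter fold must. TMM scaling gave 9 and 3 members, a median of 0.15, and 1433 and 1522 genes, and no minimum count left the members as they were with 1623 and 1517 genes. No member past the threshold changed sign after the correction. Total count and TMM scaling shift each ratio by less than the threshold, so they could not change the sign of such a member. Dropping the minimum count or raising the fold leaves the ratios of the members as they were, so neither bears on sign. Mcm2 and Mcm3 were higher past the threshold under both other scalings and the correction. Orc6 and RnrS were lower past it after the correction. The other scalings lower every ratio, so they could not undo those calls of lower. No paired analysis was possible because each group holds 1 library.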
